A study of Rattus norvegicus with 113 samples.

Results

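The arrays described here compared the uninjured hippocampus with the uninjured cortex of the rat. They were chosen by their labels, as every array of naive hippocampus and naive cortex at 2 weeks, 6 months and 1 year. This gave 24 of the 113 arrays of the series, 12 per tissue, with 4 arrays for each tissue at each time. The series follows adult male Sprague-Dawley rats after a fluid-percussion brain injury, with naive and sham-injured rats as controls. The study's surgical methods describe sham-injured and injured rats and do not state how naive rats were handled. The times are those of the injured rats that each naive group was matched to, so they mark waiting time and not a treatment. The hippocampus was lifted out whole with forceps, and the cortex was a small piece from near the site where the injured rats were struck. Both tissues came from the same rats by the study's methods. RNA from each piece was amplified, labelled in 1 colour and hybridised to an Agilent rat array.

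The hippocampus is a folded sheet of simple cortex in which granule cells of the dentate gyrus project to the pyramidal cells of CA3, which in turn project to CA1, with CA2 between them. The circuit is known for its part in memory of places and events, for its dense corticosteroid receptors, and for neurons that are still born in the dentate gyrus of the adult. The neocortex has layers instead, with upper layers that connect cortical areas and deep layers that project to the thalamus, brainstem and spinal cord. Each of these cell groups is recognised by its own transcription factors, peptides and surface proteins, so a comparison of whole tissue reads out both which cell types are present and what they express. In whole tissue, fewer cells of a type and less RNA per cell cannot be told apart.

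A level below is the log2 of the processed spot signal minus the median of that array, and a difference is the mean level in hippocampus minus that in cortex, so a difference of 1 is a 2-fold higher signal in hippocampus. Levels compare 1 probe across arrays and not different probes. Between 41.2% and 72.5% of probes were well above background on the 24 arrays, and 3 arrays stood apart. Cortex replicate 4 at 2 weeks had a median log2 signal of 7.50 against 5.51 to 5.90 on the other arrays of its group. Hippocampus replicates 1 and 2 at 6 months had medians of 5.17 and 6.61. Since the median sets the scale, the differences were computed again with each array set to its 75th percentile and the number of regional genes on that scale is given beside the first for each gene list where it differs. With the median, the difference of all tested probes centred on 0.44 at 2 weeks, -0.07 at 6 months and 0.13 at 1 year; with the 75th percentile it centred on -0.01, 0.03 and 0.03. The size of a difference also depends on the background correction: under normexp, another correction, 25 of the 86 differences compared shrank by more than 1.5 times and none grew by as much. Where no array of the dimmer tissue was above background, a lower bound on the fold is given instead of a difference. Each group filled part of 1 slide and no slide held both tissues, so slide and tissue cannot be told apart. By the scan dates in the array headers, naive hippocampus and naive cortex were never scanned on the same day. Within each tissue the 6-month and 1-year arrays shared a scan day and the 2-week arrays had a different day. Scan day therefore cannot be told apart from tissue, nor from 2 weeks against the later times. The 332 probes higher in hippocampus by the rule below under both scalings were set against the median of the other arrays of each group. On the 75th-percentile scale they lay a median of 0.22 above it on cortex replicate 2 at 2 weeks. On cortex replicate 3 at 1 year they lay 0.14 above it. Over all cortical arrays this deviation ran from -0.16 to 0.22, and over the hippocampal arrays from -0.27 to 0.30. For the 133 probes higher in cortex under both scalings it ran from -0.37 to 0.30 over the cortical arrays. Over the hippocampal arrays it ran from -0.48 on replicate 2 at 2 weeks to 0.58 on replicate 4 at 2 weeks. Choroid plexus genes, which mark the tissue that makes cerebrospinal fluid, had a mean level of 1.66 relative to the 75th percentile on hippocampus replicate 3 at 1 year and -4.22 to -2.83 on the other hippocampal arrays.

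At 2 weeks 3125 of 24239 tested probes (12.9%) passed an adjusted p of 0.05 by limma with Benjamini-Hochberg adjustment, 11% higher in hippocampus and 1.93% higher in cortex. At 6 months 3149 of 22825 (13.8%) did, 3.29% and 10.5% in the same order, and at 1 year 2028 of 22628 (8.96%), 4.38% and 4.58%. For the mean over the times 6594 of 22020 (29.9%) did. A probe was taken as regional only if it passed at all 3 times in the same direction with the 4 arrays of each tissue not overlapping at any of them. Of 22020 probes tested at all 3 times, 381 (1.73%) were higher in hippocampus and 148 (0.672%) higher in cortex by this rule. With the 75th percentile 1171 (5.32%) and 1201 (5.45%) were, 332 and 133 of them the same probes, and no probe changed direction. Leaving out cortex replicate 4 at 2 weeks raised the count from 529 to 982, of which 416 were higher in hippocampus and 566 in cortex. In named genes, with the brightest probe standing for each, 204 of 10557 (1.93%) were higher in hippocampus and 63 (0.597%) in cortex; under the 75th percentile 662 (6.27%) and 601 (5.69%) were. These 267 genes are called regional in the text and consistent in the plots.

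**Figure D1:**
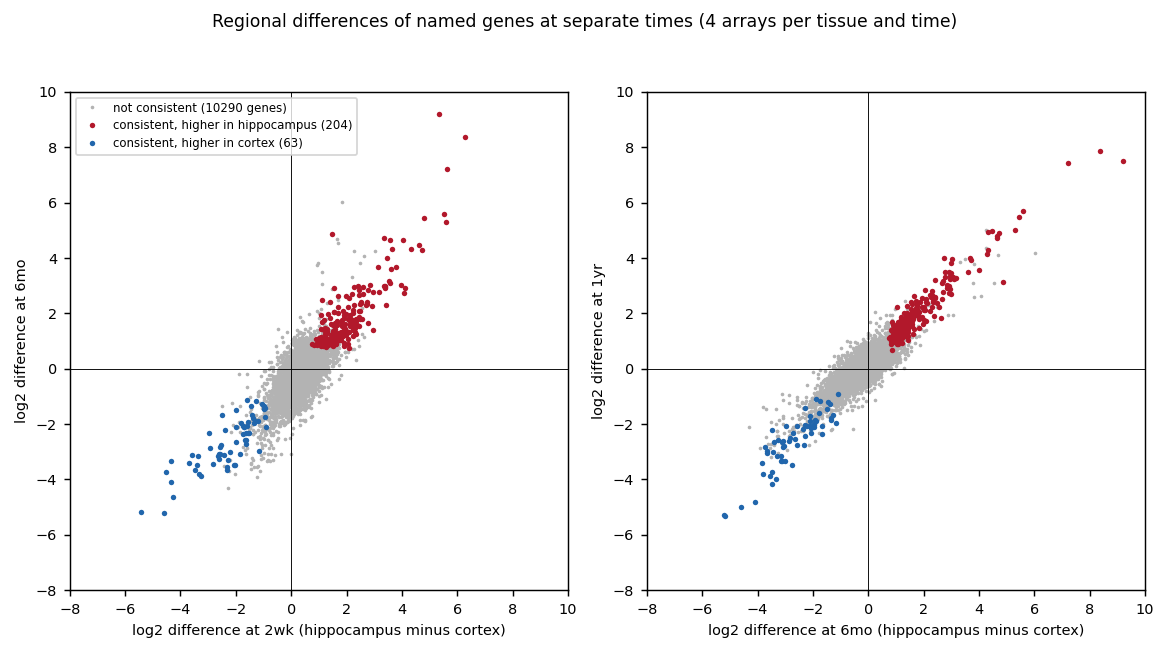
Difference in level between naive hippocampus and naive cortex (log2, hippocampus minus cortex) for 10557 named genes at 2 weeks against 6 months on the left and at 6 months against 1 year on the right, each from 4 arrays per tissue and time. The 204 genes higher in hippocampus at all 3 times (red) and the 63 higher in cortex (blue) lie along the rising diagonal, on both sides of the grey cloud of all other genes.

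The regional differences were correlated between times that shared no array. A correlation does not compare sizes, and the sizes of some differences changed between times, as given further below. Across the 22020 probes the differences correlated with r = 0.72 between 2 weeks and 6 months, 0.80 between 2 weeks and 1 year, and 0.86 between 6 months and 1 year, a description across probes that are not independent replicates. Sham rats, which went through anaesthesia and the same surgery without the blow, gave a further set of 24 arrays that the rule did not use. Their arrays shared the scan days of the naive arrays of the same tissue and time, and no slide held both tissues. Slide and scan day therefore cannot be told apart from tissue in sham rats either, and a repeated call there does not separate them. Of the 381 probes higher in naive hippocampus, 168 of the 375 tested in sham rats passed at all 3 times in the same direction, and 53 of 103 of those higher in naive cortex did. At 2 weeks, 6 months and 1 year 334 of 379, 191 of 378 and 209 of 380 of the first set passed against 7.95%, 1.68% and 2.04% of all probes in that direction, and 63 of 104, 98 of 139 and 123 of 148 of the second against 0.713%, 1.82% and 1.98%. None of the 529 passed in the opposite direction in sham rats. Cortex sham replicate 3 at 2 weeks stood apart, with a median log2 signal of 10.8 against 5.30 to 5.46 on the rest of its group. The sham difference of all tested probes centred on 1.05 at 2 weeks. Without that array 9516, 7783 and 11018 sham probes passed at the 3 times, against 1846, 786 and 1049 with it. Under the 75th percentile 392 of 1166 and 415 of 1095 tested probes passed at all 3 times.

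Among the genes furthest toward hippocampus were a protease, a peptide and a serotonin receptor. Klk8, neuropsin, a secreted protease that trims adhesion molecules at hippocampal synapses, had levels of 5.88, 6.22, 5.49 and 5.53 on the 4 hippocampal arrays at 2 weeks, 6.28, 5.14, 5.60 and 5.94 at 6 months and 5.51, 5.97, 5.89 and 5.18 at 1 year. On the cortical arrays it had -1.68, 2.57, -1.57 and -1.38 at 2 weeks, -3.34, -2.11, -2.80 and -2.32 at 6 months and -2.57, -2.91, -1.99 and -1.44 at 1 year. All 12 hippocampal arrays were far above all 12 cortical ones, and cortex replicate 2 at 2 weeks was the 1 cortical array on which the probe was well above background. At 2 weeks the difference was 6.29 ± 0.55 (SE), with an adjusted p of 1.4e-09. Klk8 was at least 109-fold higher in hippocampus at 6 months and at least 83.3-fold at 1 year, where no cortical array was well above background. In sham rats it passed the test in the same direction at each of the 3 times.

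Htr5b, a serotonin receptor known from hippocampal CA1 and the habenula in rodents, had lowest, median and highest levels of 4.20, 5.29 and 5.88 over the 12 hippocampal arrays and -2.76, -2.24 and 2.10 over the 12 cortical ones. Its difference at 2 weeks was 5.64 ± 0.43, with 3 of 4 cortical arrays well above background, and it was at least 54.7-fold higher at 6 months and 63.4-fold at 1 year, times at which no cortical array was well above background. Nhlh1, a basic helix-loop-helix transcription factor of young neurons, ran 3.69, 4.80 and 5.62 in hippocampus and -2.08, -1.06 and 0.75 in cortex. C1ql2, a complement-like protein that granule cells place at their mossy fibre synapses, ran 5.90, 6.93 and 7.32 against 0.37, 0.91 and 3.55. Both were separated on every array, by 5.61 ± 0.25 and 5.25 ± 0.27. For C1ql2, however, cortex replicate 3 at 1 year reached 3.55 where the other 3 arrays of its group lay between 0.73 and 1.1.

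Chst9, an enzyme that adds sulfate to sugar chains, was well above background on all 12 hippocampal arrays and on none of the 12 cortical ones. Its levels ran 1.67, 2.12 and 2.80 in hippocampus against -3.79, -3.13 and -2.43 in cortex, at least 10.2, 8.79 and 7.18-fold higher at the 3 times. Npy2r, the presynaptic receptor through which neuropeptide Y reduces glutamate release, ran 4.61, 5.22 and 5.92 against -1.01, 0.62 and 1.93 and differed by 4.69 ± 0.21, a 25.7-fold difference. Lhx9, a LIM-homeodomain transcription factor, was at least 6.55-fold higher at 6 months and 7.99-fold at 1 year, and Cxcr1, a chemokine receptor best known from neutrophils, at least 6.26-fold and 4.05-fold. Lrrc10b (a leucine-rich repeat protein, 4.53 ± 0.32, or 2.83 under normexp) and the olfactory receptor gene Or2b11 (at least 8.4-fold at 6 months) followed, the last uncertain because its family holds many close copies. Calml4, a calmodulin-like protein, differed by 4.32 ± 0.26, and by 4.16 without the hippocampal array that carried choroid plexus genes, on which it stood highest at 6.67. None of these 12 genes overlapped between the tissues on any pair of the 24 arrays under either scaling. Separation at each time was part of the rule that chose them, so this describes the genes and is not a test.

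**Figure D2:**
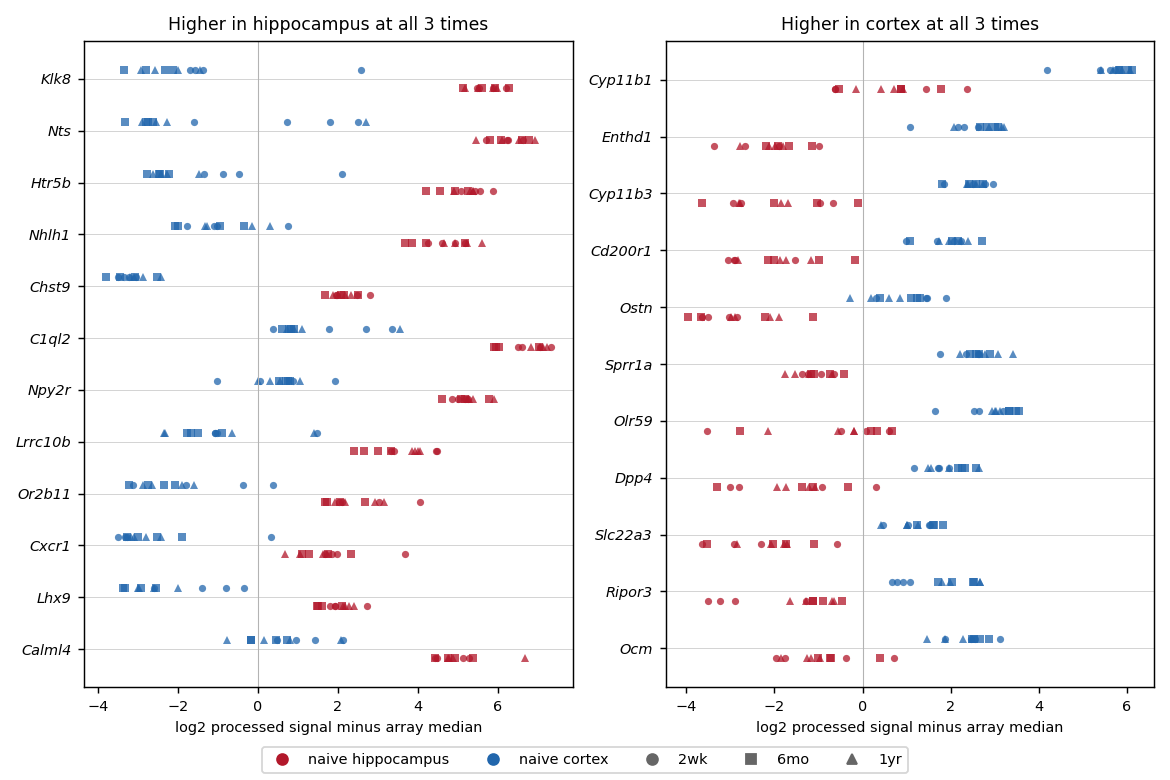
Level of the 12 genes with the largest measured regional difference toward hippocampus (left) and of 11 of the 12 with the largest toward cortex (right), as log2 processed signal minus the array median, arrays not above background included; each symbol is 1 array, red for naive hippocampus and blue for naive cortex, with the time given by its shape. The 12 red and 12 blue symbols of each gene do not overlap, and separation at each time was part of the rule that chose the genes. The single blue circles above 2 for Klk8 and Htr5b are cortex replicate 2 at 2 weeks.

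Among the genes furthest toward cortex was Cyp11b1, which the array names for the adrenal enzyme that makes corticosterone. Its levels ran 4.19, 5.77 and 6.12 in cortex and -0.63, 0.79 and 2.37 in hippocampus, a difference of -5.03 ± 0.28 with an adjusted p of 3.3e-15. Cyp11b3, its close relative, ran 1.80, 2.54 and 2.96 in cortex and -3.65, -1.94 and -0.10 in hippocampus and was at least 6.47-fold higher in cortex at 1 year. The coding sequences of the pair are nearly identical, so their probes may read the same RNA and they count as 1 uncertain observation. Enthd1, a protein with an endocytic adaptor domain, was well above background on 1 hippocampal array of 12 and was at least 10.9-fold higher in cortex at 6 months and 8.01-fold at 1 year.

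Further genes of this group make secreted or surface proteins. Ostn, osteocrin, a secreted peptide, ran -0.28, 0.98 and 1.89 in cortex and was above background on none of the 12 hippocampal arrays; the bound on its fold was 5.34 at 2 weeks, 2.96 at 6 months and 1.43 at 1 year. Cd200r1, an inhibitory receptor of myeloid cells, was at least 7.41-fold higher in cortex at 2 weeks and 4.77-fold at 1 year. Sprr1a, a cell envelope protein also known from regrowing axons, was at least 9.83-fold and 8.21-fold higher at the same times. Dpp4, a peptidase that cleaves incretins and chemokines, and Slc22a3, a low-affinity monoamine transporter, were above background on no hippocampal array at 1 year and at least 4.24-fold and 2.14-fold higher in cortex. The same held for Ocm, oncomodulin, a parvalbumin-like calcium buffer, and for Ripor3, at least 4.57-fold and 5.44-fold higher at 1 year. The mean level of a striatal list relative to the 75th percentile ran from -1.74 to -0.94 in hippocampus and from -1.62 to -0.43 in cortex, and 1 of its 12 tested members was regional in each direction, or 1 toward hippocampus and 3 toward cortex under the 75th percentile. The olfactory receptor Olr59 (-3.65 ± 0.36, or -2.30 under normexp) is uncertain for the same reason as Or2b11. Genes of the meninges, the membranes that cover the cortex, had a mean level of -0.32 to 1.49 in cortex and -1.74 to 0.58 in hippocampus. The 14 tested members had a median difference of -1.77, beside 0.18 over all tested genes. Under the 75th percentile 1 of them had a positive mean difference. None was regional, which at a background share of 0.597% says nothing particular of them. The level of 0.58 was that of hippocampus replicate 4 at 2 weeks, against -1.74 to -0.64 on the other hippocampal arrays. Without that array 221 probes were regional toward cortex, against 148 with it, and 367 toward hippocampus, against 381. The part of meninges in the cortical differences was not tested.

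The label of the tissue was checked against markers of the hippocampal fields. In the dentate gyrus list 2 of 9 tested members were higher in hippocampus and none in cortex, C1ql2 and the adhesion molecule Cdh9, which ran 3.73, 4.07 and 4.62 against 1.07, 1.75 and 2.62. Prox1, the transcription factor that fixes granule cell fate, overlapped, at 5.73, 6.54 and 6.92 in hippocampus and 4.86, 6.24 and 6.75 in cortex, with a difference of 0.28 ± 0.17 and an adjusted p of 0.22. Calb1, calbindin, abundant in granule cells, differed by 0.07 ± 0.14 with an adjusted p of 0.72 and changed sign with time. So the defining granule cell factor did not separate the tissues on these probes, while its synaptic protein C1ql2 did by 38.1-fold.

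Markers of the pyramidal cell fields were regional toward hippocampus or not at all. Of 8 CA1 genes 3 were regional: Fibcd1, a chitin-binding receptor, at 5.85, 6.62 and 7.15 against 1.20, 2.90 and 4.02, Man1a1, a mannosidase, with a difference of 1.40 ± 0.15, and Wfs1, an endoplasmic reticulum protein, with 1.31 ± 0.14. Of 6 CA2 genes 3 were. Ntf3, neurotrophin 3, ran 3.50, 3.88 and 4.33 against -0.27, 0.61 and 1.11 and differed by 3.54 at 2 weeks, 3.18 at 6 months and 3.27 at 1 year. Rgs14, which restrains synaptic plasticity in CA2, differed by 1.37 ± 0.16, and Amigo2, an adhesion molecule, by 1.17 ± 0.16. In CA3 2 of 5 were, Cpne4, a calcium-dependent membrane-binding protein, by 2.56 ± 0.21 and Bok, a Bcl-2 relative, by 1.92 ± 0.18. Of the 19 tested members of these 3 lists 8 were thus regional toward hippocampus, beside 1.93% of all genes, and none toward cortex. Ccn3 joined the CA1 genes and Grik4 those of CA3 under the 75th percentile. Rgs14 and Wfs1 were the least secure of them, since at 6 months they had adjusted p values of 0.048 and 0.039 and were still called in 4 and 17 of the 24 fits that left out 1 array. Coch, listed for CA3, lay the other way, at least 6.59-fold higher in cortex at 6 months, and was not regional. Medians were 0.94 for the CA1 list, 1.25 for CA2 and 0.97 for CA3, beside 0.18 over all tested genes.

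Transcription factors that pattern the hippocampus gave few calls. Of 21 tested, Lhx9 and Bcl11b were regional. Bcl11b, known as Ctip2 and expressed in granule cells, CA1 and deep cortical layers, ran 5.61, 6.12 and 6.53 against 2.84, 4.18 and 4.81 and differed by 2.04 ± 0.18. Under the 75th percentile Emx2, Neurod1, Nfib and Nr2f2 joined them toward hippocampus, with mean differences of 0.70, 1.28, 0.75 and 1.02, and Foxp1 and Nr2f1 were regional toward cortex, at -0.72 and -0.67. Zbtb20, which specifies CA1, differed by 1.61 at 2 weeks and 1.84 at 1 year but by 0.41 at 6 months, with an adjusted p of 0.54 there. Lhx9 is also a marker of the thalamus, which lies against the hippocampus, as is Plekhg1, which differed by 1.61 ± 0.23, or 0.88 under normexp. A list of thalamic and habenular genes, of which these 2 of 9 were regional and 4 of 9 under the 75th percentile, had a mean level of -2.67 to -1.94 relative to the 75th percentile in hippocampus and -3.53 to -2.63 in cortex; Synpo2 was above background on none of the 24 arrays and Gbx2 on no cortical array, and the part of such tissue in the Lhx9 value was not tested.

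Genes of the cortical layers were regional in both directions. Of 12 upper-layer genes 4 were regional toward cortex and none toward hippocampus. Lamp5, a lysosome-related membrane protein of upper-layer and some inhibitory neurons, ran 5.57, 6.74 and 7.38 in cortex and 3.11, 4.21 and 4.74 in hippocampus. Every cortical array was above every hippocampal one, and the difference was -1.85 at 2 weeks, -3.06 at 6 months and -2.81 at 1 year. Stard8 differed by -1.96 ± 0.15, and Pou3f2 and Cux2, transcription factors of upper-layer neurons, by -1.77 ± 0.16 and -1.57 ± 0.17. The 12 against 12 arrays of Pou3f2 overlapped across times although those of each time did not, and Cux2 stayed regional in 6 of 11 other settings, with -0.86 under normexp. Inhba was also regional toward cortex under the 75th percentile.

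Of 19 deep-layer genes 1 was regional toward cortex and 3 toward hippocampus. Tbr1, the transcription factor of corticothalamic neurons, had cortical levels of 2.62, 3.32, 2.55 and 1.46 at 2 weeks, 1.94, 2.89, 2.63 and 1.80 at 6 months and 3.12, 2.67, 3.38 and 3.33 at 1 year. In hippocampus it had 1.29, 1.32, 1.25 and 1.39 at 2 weeks, -0.69, -0.28, -0.60 and -1.06 at 6 months and 0.85, 1.24, 0.84 and 1.38 at 1 year. No hippocampal array reached a cortical one, and the difference was -1.17 at 2 weeks, -2.97 at 6 months and -2.05 at 1 year. The opposite direction was taken by Nnat, neuronatin, at 2.08 ± 0.19, by Crym, a thyroid hormone-binding protein, at 1.83 ± 0.18, and by Nr4a2, an orphan nuclear receptor of deep-layer and claustral neurons, at 1.73 ± 0.20. These 3 are listed for deep layers but their transcripts were higher in hippocampus at each time, and Lxn and Bcl6 joined them under the 75th percentile. Of 8 tested projection neuron genes 1 was regional toward cortex on the median scale, Tbr1. Under the 75th percentile 5 of 8 were, with Satb1, Kcnf1 and Stx1a among them. The list's median difference was -1.01.

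**Figure D3:**
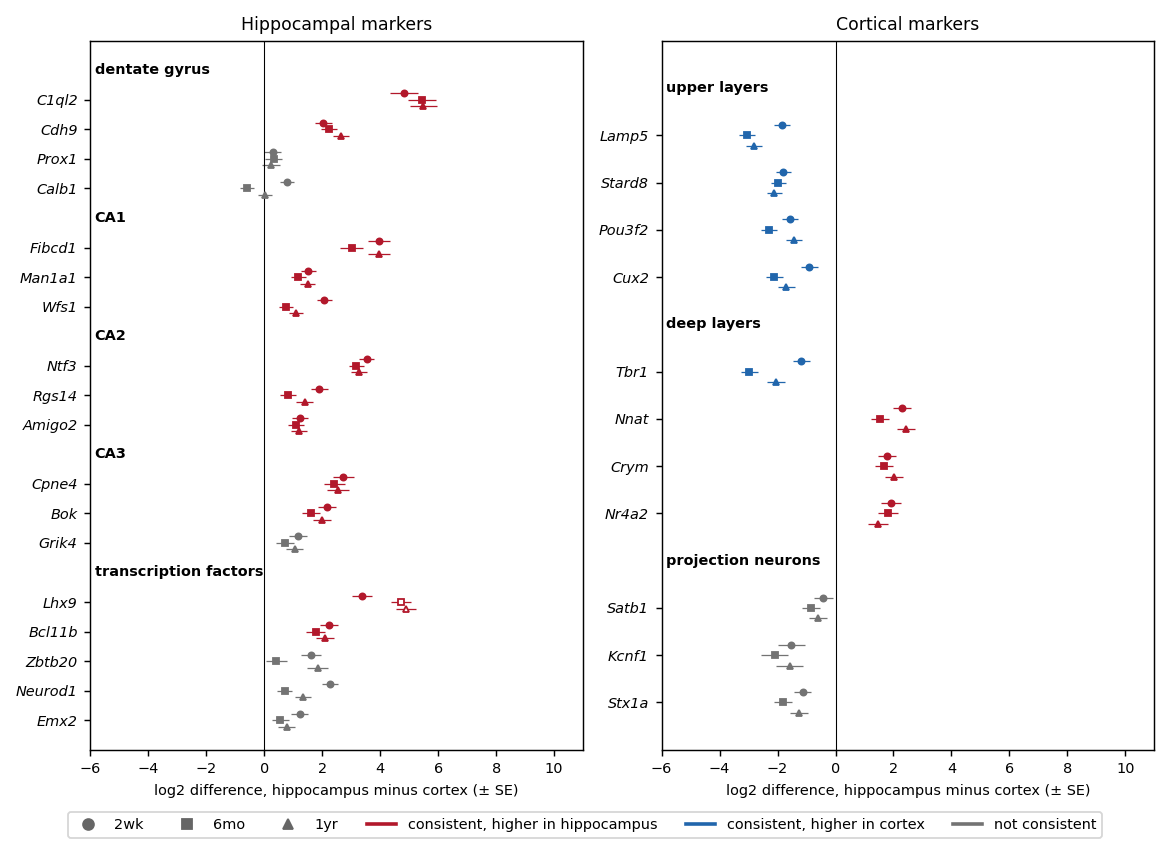
Difference in level between naive hippocampus and naive cortex (log2, hippocampus minus cortex, ± SE from limma, 4 arrays per tissue and time) for markers of hippocampal fields (left) and of cortical layers (right). Circles, squares and triangles are 2 weeks, 6 months and 1 year; red and blue genes are regional, and grey ones, such as Prox1 and Calb1 near 0, are not. Open symbols, as for Lhx9 at 6 months and 1 year, mark times without an array above background in the dimmer tissue, where the difference is against a background reading.

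Neuropeptides went both ways. Nts, neurotensin, a peptide that modulates dopamine signalling, had hippocampal levels of 6.63, 6.24, 5.70 and 6.25 at 2 weeks, 6.78, 5.82, 6.10 and 6.60 at 6 months and 6.54, 6.12, 6.94 and 5.46 at 1 year. In cortex it had 0.73, 2.50, 1.81 and -1.61 at 2 weeks, -3.33, -2.79, -2.74 and -2.62 at 6 months and -2.55, -2.89, 2.70 and -2.26 at 1 year. The hippocampal arrays lay close together and the cortical ones far apart, with 3 of 4 cortical arrays well above background at 2 weeks, none at 6 months and 1 at 1 year, yet no cortical array reached the lowest hippocampal one. Nts was at least 164-fold higher in hippocampus at 6 months. Nmb, neuromedin B, ran 3.75, 4.54 and 5.38 against 0.40, 1.43 and 3.19 and differed by 2.97 ± 0.22. Pdyn, prodynorphin, the opioid precursor stored in mossy fibres, ran 5.51, 6.40 and 7.06 against 3.28, 5.07 and 5.49 and differed by 1.57 ± 0.16, a 2.98-fold difference.

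Crh, corticotropin-releasing hormone, which cortical interneurons also make, was the 1 peptide regional toward cortex, at 2.30, 3.60 and 4.08 against 1.19, 1.93 and 2.18, a difference of -1.66 ± 0.17. The interneuron peptides Sst, somatostatin, and Vip differed by -0.77 ± 0.16 and -1.20 ± 0.16 over the 3 times and were not regional under the median, with adjusted p values at 2 weeks of 0.18 and 0.084. Under the 75th percentile both were regional toward cortex, by -0.91 and -1.35, as were Cck (cholecystokinin, -0.83), Penk (proenkephalin, -1.49) and Cort (cortistatin, -1.13). Of 18 tested peptides 3 were therefore regional toward hippocampus on either scale, and 1 or 6 toward cortex. Interneuron markers as a list had a median difference of -0.36, and Lamp5 was the 1 regional member of 18; Pvalb, Sst and Vip were among those that joined it under the 75th percentile, with Calb2 the other way.

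Promoter sequences of Nts, Sst and Vip are shown because these genes are textbook targets of factors that bind short DNA motifs. Nts was regional toward hippocampus. Sst and Vip had mean differences toward cortex but were not regional under the median. The promoter of Pdyn, also regional toward hippocampus, was searched as well. It held no match to the motifs below and is not shown. The sequences are the 300 bases around each start in RefSeq's GRCr8 rat assembly, written 5′ to 3′ on the strand of the gene. Nts lies at chr7:39460839-39461138 on the minus strand, Sst at chr11:90461296-90461595 on the plus strand and Vip at chr1:44470230-44470529 on the plus strand. Capitals mark a match to the AP-1 motif TGANTCA in Nts, to the cyclic AMP response element TGACGTCA in Sst and to its shorter form TGACGT in Vip, each searched on both strands.
Nts: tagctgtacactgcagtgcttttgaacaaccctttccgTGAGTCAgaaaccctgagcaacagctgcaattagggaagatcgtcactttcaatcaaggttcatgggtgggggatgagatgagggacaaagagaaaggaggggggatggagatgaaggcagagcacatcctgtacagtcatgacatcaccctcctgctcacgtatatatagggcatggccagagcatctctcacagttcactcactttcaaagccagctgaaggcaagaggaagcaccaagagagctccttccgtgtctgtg
Sst: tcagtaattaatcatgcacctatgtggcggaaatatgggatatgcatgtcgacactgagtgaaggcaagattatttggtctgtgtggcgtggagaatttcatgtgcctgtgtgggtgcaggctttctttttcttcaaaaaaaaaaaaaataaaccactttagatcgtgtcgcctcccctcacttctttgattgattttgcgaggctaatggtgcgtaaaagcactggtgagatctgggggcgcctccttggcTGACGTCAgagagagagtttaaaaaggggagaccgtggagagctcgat
Vip: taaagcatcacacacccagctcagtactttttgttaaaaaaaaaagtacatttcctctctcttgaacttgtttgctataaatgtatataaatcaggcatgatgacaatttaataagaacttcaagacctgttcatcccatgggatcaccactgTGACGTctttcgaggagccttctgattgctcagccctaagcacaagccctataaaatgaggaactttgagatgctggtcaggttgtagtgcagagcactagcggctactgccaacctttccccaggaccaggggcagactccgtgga
The Nts match began 212 bases before the annotated start, the Vip match 97 bases before it and the Sst match 2 bases after it. The shorter form lies within the full element, so each full match also counts for it. Of 27457 rat promoters of this length 7.33% held the AP-1 motif, 1.91% the full element and 8.22% the shorter form, and of the 8640 promoters of genes tested at all 3 times 4.88%, 3.3% and 11.7%. Among the 154 regional genes higher in hippocampus that had a promoter in the table the shares were 6.49%, 1.95% and 5.19%, and among 47 higher in cortex 4.26%, 2.13% and 6.38%. A match is a run of letters and not a measured binding site.

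Most serotonin receptors were too dim to test. Of 14 on the array 4 were tested at all 3 times, and Htr5b, Htr2c and Htr1a were regional toward hippocampus; the other 10 were not above background in every array of a group at each time. Htr2c ran 3.78, 4.89 and 5.77 against 1.01, 1.98 and 3.57 and differed by 2.78 ± 0.23. It is also abundant in choroid plexus, and without the hippocampal array that carried choroid plexus genes the difference was 2.72. Htr1a, the inhibitory receptor of pyramidal cells, ran 2.85, 3.50 and 4.01 against 0.97, 1.36 and 2.17 and differed by 2.11 at 2 weeks, 1.77 at 6 months and 2.17 at 1 year. Adra1b, an alpha-1 adrenergic receptor, lay the other way at 0.99, 2.05 and 2.70 in hippocampus against 3.75, 4.85 and 5.38 in cortex, a 7.07-fold difference, and was the 1 regional member of 11 catecholamine receptors, with Adrb1 also toward cortex under the 75th percentile. None of 7 acetylcholine receptor genes was regional under the median; Chrm4, Chrna4 and Lynx1 were toward cortex under the 75th percentile.

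Of 12 GABA-A receptor subunits 2 were regional. Gabra5, the subunit of extrasynaptic receptors long known to be enriched in hippocampus, ran 4.84, 5.52 and 5.99 against 2.55, 3.20 and 4.24 and differed by 2.21 ± 0.17, or 4.61-fold. Gabrb1 differed by 1.22 ± 0.16. Gabrd, the other extrasynaptic subunit, differed by -0.71 at 2 weeks with an adjusted p of 0.098 and by -1.75 and -1.67 later, so it was regional toward cortex only under the 75th percentile, where Gabra2 was regional toward hippocampus. Ionotropic glutamate receptors and their partners gave 1 regional gene of 25, Cnih2, an AMPA receptor partner, at 1.60 ± 0.19. Gria1 differed by 1.68 ± 0.19 but had an adjusted p of 0.0503 at 6 months, and it, Grik4 and Neto1 were regional toward hippocampus under the 75th percentile, with Gria3, Cacng2 and Cacng3 toward cortex. Of 11 metabotropic glutamate receptor genes none was regional under the median, and Homer3 toward hippocampus and Grm4 and Homer1 toward cortex under the 75th percentile. Among 18 peptide receptors Npy2r was the 1 regional gene; Crhr1 and Cckbr, receptors for 2 peptides that lay toward cortex, differed by -1.78 ± 0.19 and -1.44 ± 0.20 and were regional toward cortex under the 75th percentile, as were Tacr3 and Vipr1, with Adcyap1r1 toward hippocampus.

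Of the receptors for corticosteroids 1 was regional and the other was not. Nr3c2, the high-affinity mineralocorticoid receptor, ran 4.14, 4.54 and 5.02 in hippocampus and 1.16, 2.94 and 3.18 in cortex, differing by 2.38 at 2 weeks, 1.58 at 6 months and 1.53 at 1 year, each at an adjusted p of 0.00024 or less. Nr3c1, the glucocorticoid receptor, overlapped at 4.88, 5.58 and 5.84 and 3.62, 5.49 and 6.04, with a difference of 0.10 ± 0.17 and an adjusted p of 0.68. Whether the 2 differences differ from each other was not tested. Rxrg, a retinoid receptor, ran 3.05, 3.78 and 4.10 against -1.09, 0.57 and 1.08 and differed by 3.28 ± 0.19. In all, 4 of 25 tested genes of the steroid and nuclear receptor list were regional toward hippocampus and none toward cortex; Crym and Nr4a2 were the others. Under the 75th percentile 7 were regional toward hippocampus and 4, Rarg, Nr1d1, Nr1d2 and Nr2f1, toward cortex.

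Ion channels and calcium-binding proteins showed a few separated genes on each side. Kcng2, a modifying potassium channel subunit, ran 6.20, 7.01 and 7.46 against 3.19, 4.91 and 5.21 and differed by 2.12 ± 0.18. Kcns1, also a modifying subunit, ran 1.74, 2.45 and 2.86 against 3.59, 5.32 and 6.36 and lay toward cortex by -2.91 ± 0.18. Of 51 potassium channel genes 4 were regional toward hippocampus and 1 toward cortex, but 5 and 16 under the 75th percentile, so the balance of calls depends on the scale. The list's median difference was negative on both, at -0.30 under the first and -0.45 under the second. Of the 4, Kcnj16 differed by 1.63 ± 0.21, was not regional under the 75th percentile and was called in 14 of 24 fits that left out 1 array. Scn3b, a sodium channel beta subunit, differed by 2.00 ± 0.15, Trpc4, a cation channel of CA1 and lateral septal neurons, by 1.86 ± 0.16, and Cacna1h, a T-type calcium channel, by 1.40 ± 0.20. These were the 3 regional genes of 26 sodium, calcium and HCN channel genes, against 4 toward hippocampus and 3 toward cortex (Scn1a, Scn4b and Cacna1g) under the 75th percentile. Cabp7, a calmodulin-like protein, was the 1 regional gene of 18 calcium-binding proteins and ran 5.88, 6.88 and 7.16 against 1.75, 2.81 and 4.75, a 13.9-fold difference. There were 4 on each side under the 75th percentile, with Calb2, Hpca and Calm3 beside Cabp7, and Pvalb, Vsnl1, Necab3 and Cabp1 toward cortex.

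Of 34 guidance genes 7 were regional toward hippocampus and 2 toward cortex, and 13 and 3 under the 75th percentile. Semaphorins of class 3 are secreted signals that can repel growing axons through neuropilin receptors. The ligand Sema3a lay toward cortex at -0.50, 0.69 and 1.27 against -3.86, -2.14 and -0.61, at least 3-fold at 2 weeks and 1.47-fold at 1 year, where no hippocampal array was above background. Its receptor Nrp1 lay toward hippocampus by 2.00 ± 0.21, and Nrp2, the receptor for the related Sema3f, ran 4.04, 4.62 and 5.07 against 0.60, 1.78 and 2.75 and differed by 2.79 at 2 weeks, 2.84 at 6 months and 2.91 at 1 year. Ephrins and Eph receptors are paired on the surfaces of neighbouring cells. The ligand Efna5 lay toward cortex by -2.76 ± 0.21, while the receptors Epha7 and Epha8 lay toward hippocampus by 1.87 ± 0.15 and 2.09 ± 0.23. Efnb3, a midline ephrin, lay toward hippocampus by 2.24 ± 0.16, as did Sema5a by 1.56 ± 0.16 and Dcc, the netrin receptor, at least 3.09-fold at 1 year. Epha5 and the secreted cues Slit1, Slit2 and Slit3 joined them toward hippocampus under the 75th percentile, and Sema3d was then regional toward cortex. The Eph receptors Epha2 and Ephb4, which are not on this list, were also regional toward cortex under the 75th percentile. With them, ligands and receptors lay on both sides. The list's median difference was 0.45.

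The 2 receptors of the GDNF family named here lay on opposite sides. Gfra1, which binds GDNF, ran 3.90, 4.52 and 5.10 in hippocampus against 1.18, 2.77 and 3.16 in cortex, and Gfra2, which binds neurturin, 3.04, 4.19 and 4.87 against 4.63, 6.10 and 6.65, with 1 cortical spot at 1 year left out as an outlier. Their differences were 1.85 ± 0.18 and -1.91 ± 0.21. Gdf10, a growth factor of the BMP family, differed by 1.94 ± 0.17, and Nrg1, neuregulin 1, by -1.20 ± 0.14, or -0.73 under normexp. Of 27 neurotrophic genes 3 were regional toward hippocampus and 2 toward cortex, and 7 and 5 under the 75th percentile. Bdnf, listed here and among activity-regulated genes, differed by 1.13 ± 0.17 and was regional only under the 75th percentile. In the Wnt pathway, which guides the growth of the embryonic hippocampus, Rspo2, an agonist, differed by 2.32 ± 0.20 (1.45 under normexp), the decoy receptor Frzb by 2.15 ± 0.19 and the receptor Fzd1 by 1.34 ± 0.16. The ligand Wnt10a lay toward cortex by -2.11 ± 0.17. Of 29 Wnt genes tested these were the 4 regional ones; Wnt4 joined toward hippocampus and Wnt9a toward cortex under the 75th percentile. Other single calls were the cadherins Cdh9 and Pcdh19 of 20, the matrix protein Spon1 of 17, the neurogenic factor Bhlhe22 of 14 neurogenesis genes, and Syt2, a fast calcium sensor for transmitter release, toward cortex among 35 synaptic genes. With the 75th percentile 5 cadherins lay on each side, 3 neurogenesis genes lay toward hippocampus and 2 toward cortex, and 6 synaptic genes lay toward cortex, among them Snap25 and Vamp1.

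**Figure D4:**
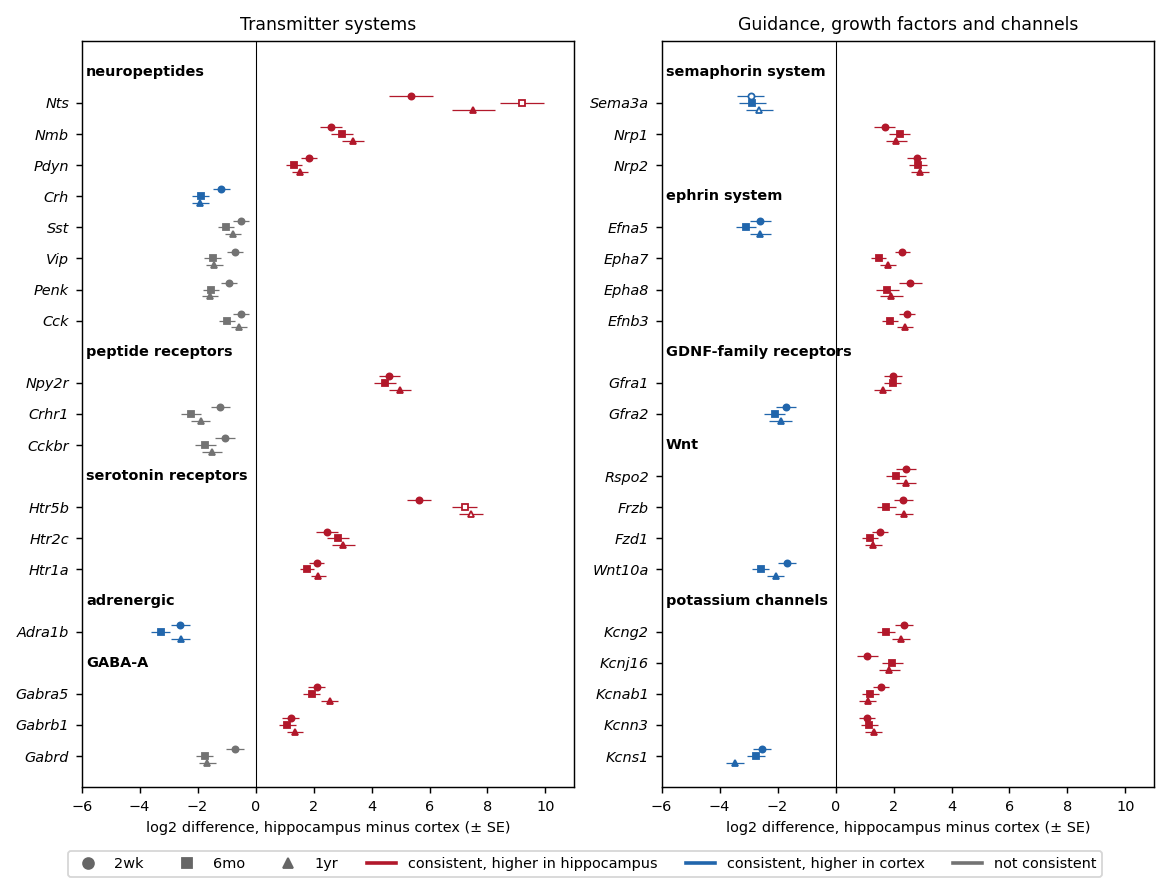
Difference in level between naive hippocampus and naive cortex (log2, hippocampus minus cortex, ± SE from limma, 4 arrays per tissue and time) for transmitter systems (left) and for guidance, growth factor, Wnt and potassium channel genes (right). Red genes are regional toward hippocampus, blue ones toward cortex and grey ones not regional; open symbols, as for Htr5b at 6 months and 1 year, mark times without an array above background in the dimmer tissue, where the difference is against a background reading.

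Lists of glial, vessel and housekeeping genes held no regional gene under the median, a count that at the background shares of 1.93% and 0.597% says nothing particular of them. None of 12 housekeeping genes, 21 oligodendrocyte, 17 astrocyte, 18 microglial and 18 endothelial or mural genes was, and under the 75th percentile Aqp4 of the astrocyte list and Tie1, Esam and Kcnj8 of the vessel list were. Averaged over the 3 times, whole lists nevertheless lay to one side, although the members of a list are not independent observations. On the 75th percentile scale all 21 oligodendrocyte and all 18 microglial genes had a positive mean difference, with medians of 0.36 and 0.49, and all 18 vessel genes a negative one, with a median of -0.63, beside 0.03 over all genes. The mean level of the oligodendrocyte list overlapped at 2 weeks, at 2.65 to 3.05 in hippocampus and 2.46 to 3.34 in cortex. It ran 2.53 to 3.00 against 1.77 to 2.43 at 6 months, and 2.81 to 2.89 against 2.32 to 2.97 at 1 year. The mean level of the microglial list ran from 1.01 to 3.48 in hippocampus, the highest on replicate 3 at 6 months, and from 0.71 to 1.93 in cortex. That of the vessel list ran from -0.72 to -0.25 against -0.09 to 0.36, so the tissues did not overlap there. Cilia genes of ependymal cells, which line the ventricles beside the hippocampus, ran from -1.84 to -0.52 against -3.71 to -1.58; Foxj1, the factor that switches on motile cilia, was the 1 regional member of 7, at 2.16 ± 0.26, or 2.05 without the choroid plexus-bearing array, with Mlf1 beside it under the 75th percentile.

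**Figure D5:**
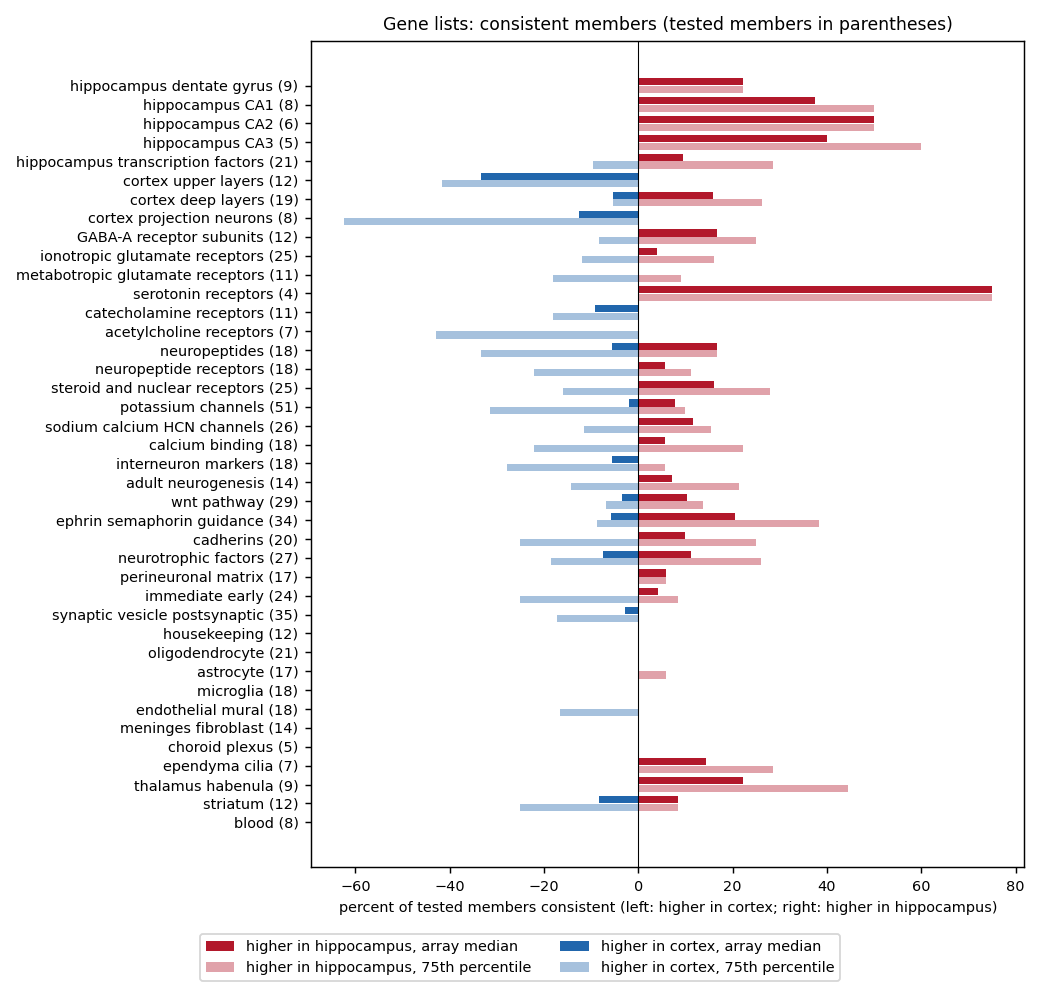
Share of the tested members of each gene list (number in parentheses) that were regional, as percent, toward hippocampus to the right (red) and toward cortex to the left (blue); dark bars are array-median and pale bars 75th-percentile scaling. The hippocampal field lists have bars only to the right and the upper-layer list only to the left, whereas channel and peptide lists have longer pale bars to the left.

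Some regional differences were not the same at the 3 times. The 2-week arrays of both tissues were scanned on other days than the later ones, so time and scan day cannot be told apart in contrasts with 2 weeks. The test of the difference between times called 788 of 22520 probes (3.5%) between 2 weeks and 6 months, 758 of them lower in hippocampus relative to cortex at 6 months, while the median over all probes went from 0.44 to -0.07. Under the 75th percentile 2815 (12.5%) were called, 1521 up and 1294 down. Between 2 weeks and 1 year 2 of 22478 (0.0089%) were called and between 6 months and 1 year 1 of 22116 (0.00452%), with 1538 and 984 at an unadjusted p under 0.05. The activity-regulated transcription factor Egr1 had hippocampal levels of 3.68, 3.45, 3.35 and 3.71 at 2 weeks, 1.28, 0.61, 1.18 and 0.51 at 6 months and 2.26, 3.24, 2.23 and 3.11 at 1 year. In cortex it had 3.92, 3.71, 3.91 and 2.65 at 2 weeks, 3.91, 4.10, 4.14 and 3.74 at 6 months and 4.31, 5.28, 4.04 and 4.31 at 1 year. The difference was thus close to 0 at 2 weeks, -3.08 at 6 months and -1.77 at 1 year, and its change from 2 weeks to 6 months of -3.08 had an adjusted p of 0.00053. The 24 activity-regulated genes had a median difference of -0.77 over the 3 times, and 1 of them, Nr4a2, was regional toward hippocampus. Bdnf joined it under the 75th percentile, and Fos, Egr4, Homer1, Dusp1, Ier2 and Per1 were then regional toward cortex.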

How the data were processed

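RNA from naive hippocampus and cortex was measured on 1-colour Agilent rat arrays, 1 array per tissue piece. The deposited intensity is the processed signal that the authors exported from Agilent Feature Extraction 11.5.1.1, which subtracts local background. The authors' own table, scaled per array in GeneSpring per the study's methods, is also a linear intensity and was an alternative. The deposited flags of other kinds (above background, saturation, outlier) were used as filters; no spot was saturated.

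Control probes and outlier-flagged spots were left out. Signals were log2-transformed and centred on the median of each array, the scaling that the study's methods state. The authors' deposited values for these arrays are instead scaled near the 75th percentile. Probes entered a test only where all arrays of either tissue at that time were flagged as well above background. A cell-means model over the 24 naive arrays was fitted in limma 3.58.1 (R 4.3.3) with Benjamini-Hochberg adjustment at 0.05. SE is that of the fitted difference. Of 45598 probes 21109 (46.3%) had a gene symbol, for 16581 genes, and the brightest probe stood for each gene. "At least" folds set the brighter group's mean against the lowest signal that counted as above background, or the dim probe's own signal if higher. Array number limits the precision. The 4 arrays of a group came from separate rats per the methods. In simulated data all added differences of 3 on the log2 scale were called regional, but few of 1, so small regional differences are missed. The simulated noise was independent between arrays and every probe counted as above background. Shifts of a whole array, dim probes and differences that change with time were thus left out, and large differences can be missed too. Tmem212, described below, had a mean difference of 4.02 and was not regional.

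Alternatives were other scalings, the authors' values, another background correction, 2 other filters, a replicate block, single-time fits, array weights, and leaving out arrays. Genes and lists were chosen with earlier results of these data known. Named were the 12 largest measured regional differences in each direction (the order among probes at background is not settled), up to 6 regional members per list, defining members that did not pass, and up to 4 genes per contrast between times. Some genes that this rule names are not reported here. Genes regional only under the 75th percentile, the guidance genes beyond the 6th by size and the families in the closing section were named after their values were seen. Promoters were matched by symbol.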

Additional observations from a re-analysis of the deposited data

Results flagged for a closer look

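Single arrays stood apart from the other 3 of their group in 11 of 144 groups of 4 tested. Only genes with the largest measured regional differences and the share of probes above background were tested, and chance alone marks about 1 in 20 groups. On cortex replicate 2 at 2 weeks Klk8 was at 2.57 (others -1.68 to -1.38), Lrrc10b at 1.48 (others -1.06 to -1.01) and Cxcr1 at 0.32 (others -3.48 to -3.27). On cortex replicate 3 at 1 year Nts was at 2.70 (others -2.89 to -2.26) and C1ql2 at 3.55 (others 0.73 to 1.1). These 5 values were all those of hippocampal genes in cortical pieces, and each lay toward the hippocampal level. On hippocampal arrays Calml4 was at 6.67 on replicate 3 at 1 year (others 4.75 to 4.88), the array with choroid plexus genes. C1ql2 was at 7.02 on replicate 1 at 6 months (others 5.90 to 6.04) and Olr59 at -2.77 on replicate 2 (others 0.20 to 0.67), the pair of arrays whose medians were unlike. At 2 weeks in hippocampus Cxcr1 was at 3.68 on replicate 2 (others 1.67 to 1.99), Lhx9 at 2.72 on replicate 1 (others 1.80 to 1.93) and Cd200r1 at -1.54 on replicate 4 (others -3.06 to -2.89).

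By limma's interaction test with Benjamini-Hochberg adjustment the difference between tissues itself differed for 337 named genes between 2 weeks and 6 months and for 2 between 2 weeks and 1 year. The 4 largest changes of the first set and both of the second are given. All of them are contrasts with 2 weeks, where time and scan day cannot be told apart. From 2 weeks to 6 months it rose by 4.20 for Tmem212, a membrane protein of ciliated cells (adjusted p = 0.0061; differences of 1.84, 6.03 and 4.18 at the 3 times), by 3.85 for Nts (adjusted p = 0.041), and by 3.41 for C16h10orf53 (adjusted p = 0.0024; 1.47, 4.87 and 3.15). At 6 months no cortical array was above background for Tmem212, Nts or C16h10orf53, so these 3 sizes rest on background readings, and under normexp the mean differences of Tmem212 and C16h10orf53 over the times were 2.01 and 1.32, against 4.02 and 3.16. It fell for Egr1, by -3.08 (adjusted p = 0.00053). From 2 weeks to 1 year it rose by 2.82 for Cfap97, a cilia-associated protein (adjusted p = 0.014; -1.16, 0.27 and 1.66), and by 2.78 for Iqcg, a sperm flagellum and cilia protein (adjusted p = 0.0035; 0.48, 3.25 and 3.26), which was not tested at all 3 times. Ependymal cilia genes had mean levels, relative to the 75th percentile, of -2.33 to -1.58 in cortex at 2 weeks, -3.71 to -3.44 at 6 months and -3.17 to -2.36 at 1 year, and of -1.84 to -0.52 over the hippocampal arrays, and their part in the Tmem212, Cfap97 and Iqcg values was not tested.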

How the results depend on the processing

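Counts moved most with the scaling and sizes with the background correction. Under normexp 25 of 86 named differences shrank by more than 1.5 times, among them Chst9 (5.30 to 2.23), Lhx9 (4.33 to 1.87), Cxcr1 (4.39 to 1.84), Enthd1 (-4.63 to -2.34), Ostn (-3.70 to -1.40) and Sema3a (-2.81 to -0.95), and C1ql2 (4.58) then lay above Htr5b (4.21). No direction was reversed in any setting run, and 901 single-gene values under other settings counted as unchanged. With the median over a gene's probes in place of the brightest probe, unchanged means closer to the main value than its SE. No call was made in that setting, and 11 values moved there. In the other settings unchanged means the same direction and call. Cfap97 with array weights gained a call (0.56). Genes that a setting left untested were not counted. All 2064 single-gene differences averaged over the times kept their call with 1 array left out. The regional call, which needs each time, was kept in fewer of the 24 fits for Rgs14 (4), Kcnj16 (14), Wfs1 (17), Plekhg1 (19), Foxj1 and Cnih2 (20), Cux2 and C16h10orf53 (21), Nrg1 (22) and Cacna1h (23). Of 529 regional probes 205 were regional in all 11 other settings and 385 in all 24 fits without 1 array. Counts are given in the order 2 weeks, 6 months, 1 year, regional probes, regional members of the lists, mean over times, and the changes 6 months minus 2 weeks, 1 year minus 2 weeks and 1 year minus 6 months. Scaling to the 75th percentile gave 5995, 10284, 8676, 2372, 177, 12812, 2815, 130 and 264. Quantile normalization gave 6087, 9660, 7520, 2304, 179, 11982, 2731, 83 and 203. The authors' values, which are themselves scaled near the 75th percentile, gave 5971, 10271, 8645, 2373, 177, 12785, 2770, 117 and 267. Among the rest only the values that moved past 1.5 times are given. Normexp background correction, run on the median spot signal because no mean signal was in the columns used, gave 7736, 6085 and 3313 for the single times and 7123, 976 and 6 for the changes. No filter gave 1772 at 2 weeks and 424, 0 and 0 for the changes, where limma's filtered fit had 1538 and 984 probes at an unadjusted p under 0.05 for the last pair. Testing only probes above background in both tissues gave 1791 at 6 months, 1251 at 1 year, 313 regional probes and 341, 0 and 2 changes. Each time alone gave 1218 at 2 weeks and 8452 at 1 year. Array weights gave 1709, 9357, 10826, a mean of 10585 and changes of 1941, 16 and 1499. Leaving out the 3 unlike arrays, chosen after seeing the data as were normexp on this column and the combined settings, gave 6992 at 6 months, 7958 at 1 year, 1641 regional, 150 list members, a mean of 11251 and changes of 1604, 20 and 355.

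The replicate number did not pair the tissues at all times. Deviations of same-numbered hippocampal and cortical arrays from their group means correlated over 17963 probes with r of 0.26 to 0.41 at 2 weeks and 0.35 to 0.50 at 1 year, each array best with its own number, but -0.39 to 0.12 at 6 months. At 6 months hippocampus replicates 1, 2, 3 and 4 correlated best with cortex replicates 2, 1, 4 and 3, with r of 0.22, 0.37, 0.40 and 0.42. The replicate block joins same-numbered arrays at every time, so at 6 months it may join arrays of different rats. With this doubt, the replicate block gave 2932, 3136 and 2076 probes, 528 regional, a mean of 6397 and changes of 644, 16 and 6. With the 75th percentile the replicate block gave 6056, 10335, 8741, 2285, 178, 12856, 2726, 33 and 194.

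Leaving out 1 array gave 1657 (without hippocampus replicate 1 at 2 weeks) to 8650 (without cortex replicate 3 at 2 weeks) at 2 weeks, and 2281 to 5977 at 6 months, 1538 to 4504 at 1 year, 471 to 982 regional probes and 62 to 110 list members, each of these highest values without cortex replicate 4 at 2 weeks. The mean ranged from 5609 to 8707 and the changes from 286 to 2120, 1 to 5 and 0 to 140. Sham counts at 2 weeks, 6 months and 1 year were 4984, 2364 and 2980 with the 75th percentile, 4652, 1710 and 2694 with quantiles, 6526, 2974 and 4412 with the authors' values, 14715 at 2 weeks with normexp, 16916 at 2 weeks with no filter, 606, 230 and 462 with both tissues above background, 1042 at 2 weeks with the replicate block, and 33, 5922 and 11447 with each time alone. Without 1 array they ranged from 1012 to 9516, 582 to 7783 and 660 to 11018, the highest without cortex replicate 3 at 2 weeks, whose removal under the 75th percentile gave 10260, 8514 and 11519. A slide block was not run, because each slide held arrays of 1 tissue. The cause of the differences between settings was not tested.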

Other observations

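Further gene families held regional genes, most of them on no list above, and they were picked after their values were seen. Copines are calcium-dependent membrane-binding proteins. Of 6 tested copine genes Cpne2, Cpne4 and Cpne6 were regional toward hippocampus, by 1.66 ± 0.16, 2.56 ± 0.21 and 1.72 ± 0.17, and Cpne9 toward cortex by -2.09 ± 0.19. Enzymes that sulfate sugar chains lay on both sides. Chst7, Chst8 and Chst9 of 9 carbohydrate sulfotransferases were regional toward hippocampus, Chst7 and Chst8 by 0.88 ± 0.15 and 1.45 ± 0.16 and Chst9 at least 7.18-fold at 1 year, Chst7 only under the array median. Hs3st2 and Hs3st5 of 4 heparan sulfate 3-O-sulfotransferases were regional toward cortex, Hs3st2 by -1.59 ± 0.18 and Hs3st5 at least 2.95-fold at 6 months, with Hs3st6 beside them under the 75th percentile. Heparan sulfate is carried by glypicans, and Gpc3 and Gpc4 of 5 were regional toward hippocampus, by 1.35 ± 0.15 and 1.74 ± 0.17. Plppr1 and Plppr4 of 5 plasticity-related phosphatase genes, which act on lipids at growing axons and synapses, were regional toward hippocampus by 1.27 ± 0.15 and 1.58 ± 0.15, and the transcription factors Cebpb and Cebpd of 5 by 1.39 ± 0.17 and 1.39 ± 0.17. Background shares were 1.93% of genes toward hippocampus and 0.597% toward cortex.

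Structural genes were regional as well. Of 7 genes for radial spokes and tektins, which build motile cilia, Rsph10b, Rsph9, Tekt1 and Tekt4 were regional toward hippocampus, by 2.83 ± 0.23, 1.31 ± 0.16, 1.44 ± 0.18 and 1.58 ± 0.17, where ependymal genes were also at a higher level; under the 75th percentile Tekt4 was not regional and Rsph6a of the same 7 was regional toward cortex. Myh6 and Myh7, the heavy chains of heart myosin, which are close copies and may share a probe target, were regional toward hippocampus by 1.06 ± 0.15 and 1.13 ± 0.13. Single regional genes included Mas1, a receptor of the angiotensin system, at 3.08 ± 0.17, Lpl, lipoprotein lipase, at 2.79 ± 0.18, and the peptide Npb at 2.60 ± 0.17. Avp, vasopressin, differed by 1.25 ± 0.18 and was not regional under the 75th percentile. Toward cortex lay the muscle-type genes Cox6a2, a subunit of cytochrome oxidase, at -3.09 ± 0.22, and Tnnc2, a troponin, at -1.65 ± 0.20, and Cbln2, a synapse organiser, at -2.14 ± 0.19. Of 814 olfactory receptor genes on the array 6 were tested at all 3 times, and Or2b11 and Olr59 were regional in opposite directions.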
